A study of Mus musculus with 21 samples.

Results

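Nuclear-encoded subunits of the oxidative phosphorylation machinery were followed in AGRP and POMC neurons of fed and food-deprived (FD) mice. They were taken from the gene table by symbol, as the names beginning Nduf followed by a, b, c, s or v and a number, together with Ndufab1, Sdha to Sdhd, the Uqcr genes, Cyc1, the Cox4 to Cox8 genes and the Atp5 genes. This gave 85 of the 35266 genes listed, of which 37 belong to complex I, 4 to complex II, 9 to complex III, 18 to complex IV and 17 to complex V. The naming rule also takes 4 genes that are not plain structural subunits of the complex they are named for. Ndufa4 is named for complex I but its product is now placed in complex IV, Cox7a2l encodes a factor that joins complexes III and IV into supercomplexes, Atp5s encodes the coupling factor B of the ATP synthase, and the product of Atp5sl acts in complex I assembly. The genes are spread over 19 chromosomes, with 3 on the X chromosome.

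AGRP neurons drive feeding and POMC neurons restrain it, and both sit in the arcuate nucleus of the hypothalamus. RNA sequencing was done on GFP-labelled cells picked by hand from this nucleus after pronase digestion, each library being made from 1 mouse, and the comparisons ask how a day without food changes expression in each neuron type. AGRP neurons came from NPY-hrGFP mice, in which the Npy gene's regulatory sequence drives the reporter, and POMC neurons from Pomc-GFP mice, in which the regulatory sequence of Pomc does so, all male and on a C57BL/6J background. Fed mice had free access to food, FD mice were without food but with water for 24 h, and both were moved to a fresh cage for that time. There were 5 AGRP fed, 6 AGRP FD, 5 POMC fed and 5 POMC FD libraries, from mice aged 46 to 56 postnatal days. The cell type is confounded with the reporter line throughout, so the line and the neuron type cannot be told apart.

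Oxidative phosphorylation makes most of the ATP of a neuron. Complexes I and II pass electrons from NADH and succinate to ubiquinone, complex III passes them on to cytochrome c, complex IV hands them to oxygen, and complex V uses the proton gradient that results to make ATP. The mitochondrial genome encodes a small core of these complexes, and all remaining subunits are encoded in the nucleus, translated in the cytosol and imported. Many of the small accessory subunits are encoded by short transcripts, and several positions in complex IV have a common isoform and a counterpart typical of muscle, testis or lung.

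The libraries held between 9822298 and 37663979 counts in genes (median 19189780), from 44 to 214 sorted cells, with 25.6 to 55.3% of counted reads falling outside genes. Agrp mRNA was between 2053 and 19928 TPM (a level scaled to the library and divided by transcript length) in AGRP libraries and at most 69.3 TPM in POMC libraries, while Pomc mRNA was between 7162 and 23063 TPM in POMC libraries and at most 69.7 TPM in AGRP libraries, so the markers matched the labels. Of 16 markers of astrocytes, oligodendrocytes, microglia and endothelial cells, 14 were detected in each group, and their summed level ranged from 36.5 to 53.6 TPM in AGRP fed, 29.5 to 45.5 TPM in AGRP FD, 31.0 to 39.0 TPM in POMC fed and 25.5 to 59.9 TPM in POMC FD libraries. The microglial marker C1qa was listed at 0 in all 4 groups.

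POMC fed replicates 1 and 2 stood apart from all other libraries for these genes. Their summed subunit level was 34715 and 32374 TPM, against 16126 to 24217 TPM in the other 19 libraries. Relative to POMC fed replicates 3 to 5 the subunits were higher by a median of 1.01 on the log2 scale of normalized counts, with 76 of the 81 tested subunits above 0, while the median over all genes was 0.02. These libraries came from mice of 51 postnatal days, the other POMC fed libraries from mice of 55 or 56 days, and they were the 2 POMC libraries whose volume of added spike-in RNA had been scaled to the number of cells. The 5 AGRP libraries given spike-in RNA in the same way had subunits below the mean over all libraries, by medians of -0.43 to -0.11, and the 2 POMC libraries were at 1.10 and 0.94. The subunit genes were short, with a median exon length of 1001 bases against 3162.5 bases over the tested genes, and 59 of the 81 fell in the shortest of 5 equal bins of gene length. In POMC fed replicates 1 and 2 the other genes of that bin were higher by a median of 0.43 and those of the longest of the 5 bins stood at -0.24, while the subunits of the shortest bin were at 1.16. The summed markers of other cell types were 31.0 and 31.5 TPM in these libraries, the lowest of the POMC fed group. Cartpt, a further POMC neuron marker, ranged from 2913 to 14096 TPM (median 4389) in POMC fed and from 1647 to 3937 TPM in POMC FD libraries. The median log2 fold change of Pomc and Cartpt in POMC FD against fed was -1.21 with all libraries and -0.33 without replicates 1 and 2. The part of gene length, age and spike-in set in the difference of the subunits was not tested. The comparisons that use POMC fed libraries are given with and without replicates 1 and 2. Mean levels over all libraries include them.

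**Figure D1:**
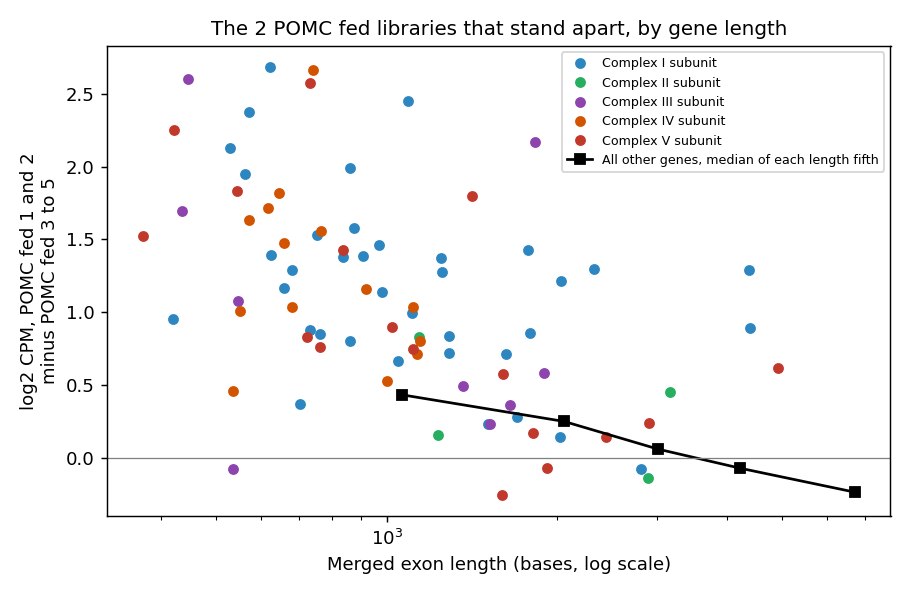
Difference in log2 CPM between POMC fed replicates 1 and 2 and POMC fed replicates 3 to 5 for each tested subunit (coloured points, by complex) against its merged exon length in bases on a log axis. Black squares are the medians of all other genes in each of 5 bins of exon length, which go from 0.43 in the shortest to -0.24 in the longest, and most subunits lie above that line.

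The subunits together made up about 2% of the transcript pool. Their summed level was 20135 ± 2473 TPM (SD, n = 5), or 2.01% of all TPM, in AGRP fed, 18629 ± 2129 TPM (SD, n = 6), or 1.86%, in AGRP FD, 25318 ± 7574 TPM (SD, n = 5), or 2.53%, in POMC fed and 19685 ± 1655 TPM (SD, n = 5), or 1.97%, in POMC FD neurons. POMC fed was 19834 ± 762 TPM (SD, n = 3) without replicates 1 and 2. The FD mean was 0.925 of the fed mean in AGRP neurons, with overlapping ranges. In POMC neurons it was 0.778 with all libraries and 0.993 without replicates 1 and 2.

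**Figure D2:**
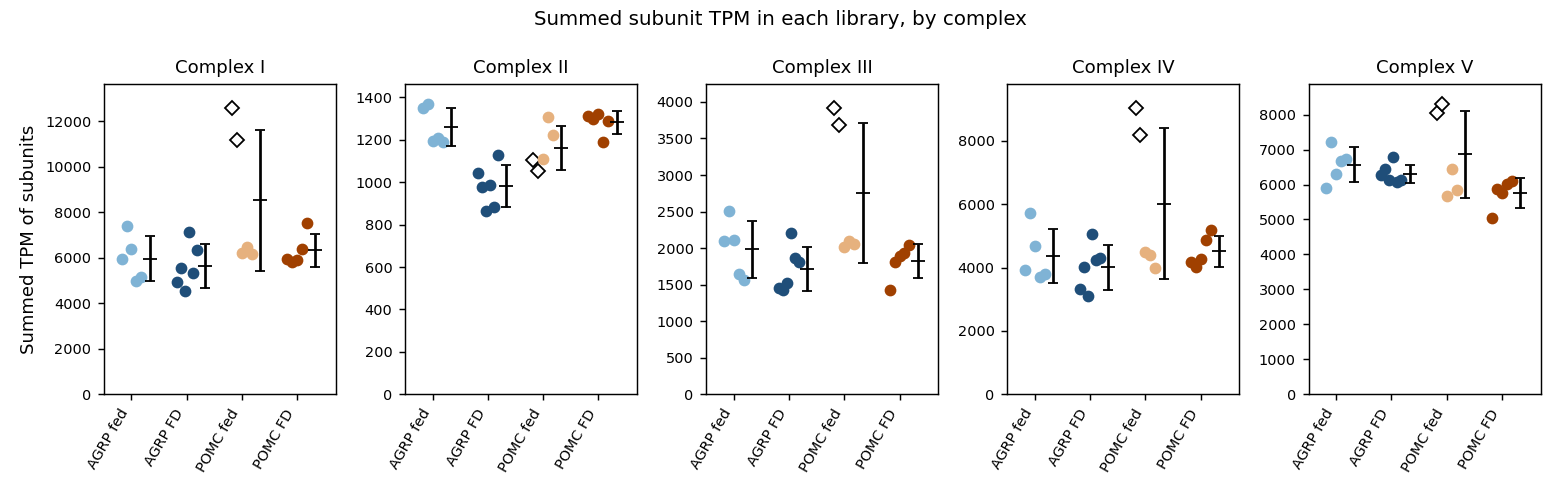
Summed TPM of the subunits of complexes I to V in each library, on linear axes from 0, with 1 point per library and the mean ± SD of each group beside it. The open diamonds are POMC fed replicates 1 and 2, which lie above every other library in complexes I, III, IV and V and are the lower 2 POMC fed libraries in complex II.

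Complexes I and V held the largest shares of this pool. In AGRP fed neurons complex I took 29.6%, complex II 6.27%, complex III 9.86%, complex IV 21.7% and complex V 32.6% of the summed TPM. Complex II was the one complex whose AGRP fed and AGRP FD libraries did not overlap. Its summed TPM was 1192 to 1370 in AGRP fed and 866 to 1129 in AGRP FD libraries, so that these groups did not overlap. Sdha, the succinate-oxidising flavoprotein, made up 62.4% of the complex II total over all libraries, and its own mean was 810 ± 89.9 TPM (SD, n = 5) in AGRP fed and 605 ± 80.7 TPM (SD, n = 6) in AGRP FD neurons. In counts scaled by library (normalized CPM, TMM-scaled and not divided by length) the same gene was at 671 ± 85.5 and 594 ± 70.9, a log2 fold change of -0.18 (edgeR adjusted p = 0.431). The difference in Sdha was thus smaller in TMM-scaled counts than in TPM, and it did not pass the test on the counts.

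Within each complex the levels of single subunits differed widely. The highest mean level over the 21 libraries was that of Atp5b, the catalytic beta subunit of the ATP synthase, at 2256 TPM, which was 10.8% of the TPM of all 85 genes and the top rank in all 4 groups. In complex I the highest was Ndufa4 at 880 TPM, in complex IV Cox4i1, the common subunit 4, at 782 TPM, in complex II Sdha at 725 TPM, and in complex III Uqcrh, the hinge protein that helps cytochrome c dock, at 582 TPM. Means were above 100 TPM for 61 genes. The 6 genes below 10 TPM, Cox4i2, Cox6a2, Cox6b2, Cox7b2, Cox8b and Cox8c, were all isoforms of complex IV subunits. The order of levels among the leading genes was not fixed. Ndufa4 was at 688 ± 237 TPM (SD, n = 5) and Cox4i1 at 764 ± 204 TPM (SD, n = 5) in AGRP fed neurons, a gap smaller than the SD of either.

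Complex IV isoforms were expressed unequally at the positions where the mouse genome offers a choice. Cox4i1, Cox6a1, Cox6b1, Cox7a2, Cox7b and Cox8a had means over all libraries of 782, 515, 551, 282, 355 and 669 TPM. Their counterparts Cox4i2, Cox6a2, Cox6b2, Cox7a1, Cox7b2 and Cox8b had means of 0.696, 2.15, 4.79, 10.6, 0.899 and 1.45 TPM, and Cox8c had no count in any of the 21 libraries, which allows at most 0.305 CPM in the shallowest of them. Cox4i2, Cox7b2, Cox8b and Cox8c did not reach 1 CPM in 3 libraries and were not tested, which left 81 of the 85 genes in the tests. Cox4i2 is known as the lung form, Cox6a2, Cox7a1 and Cox8b as heart and skeletal muscle forms, and Cox6b2 and Cox8c as testis forms. The level of Cox7a2l, the supercomplex factor, was 293 TPM, close to the 282 TPM of its paralogue Cox7a2.

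**Figure D3:**
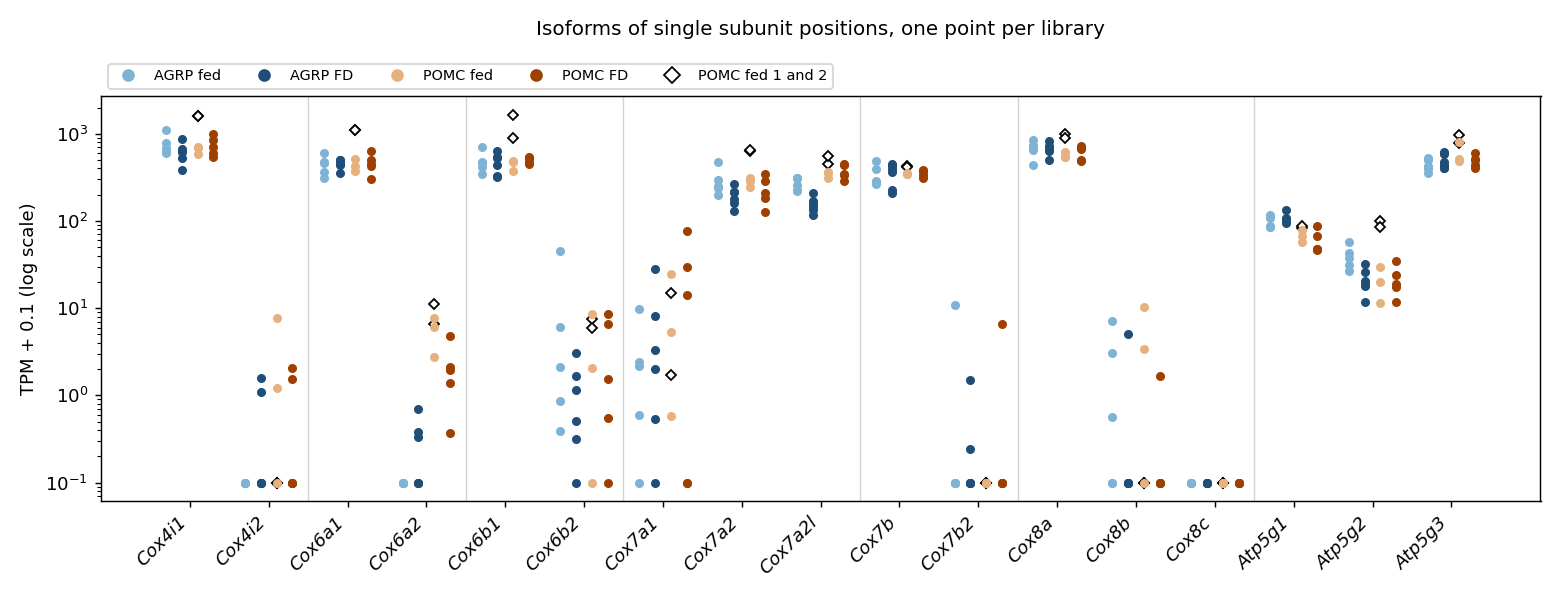
TPM + 0.1 on a log axis for the isoforms of single subunit positions in complex IV, for Cox7a2l and for the 3 genes of the ATP synthase c subunit, with 1 point per library. At the 6 complex IV positions the common isoforms lie above 100 TPM in each library and their counterparts below it, and Cox8c has no count in any library.

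The c subunit, which forms the membrane ring of the ATP synthase, is encoded by 3 genes that differ in their import peptides and give the same mature protein. Over all libraries Atp5g3 was at 532 TPM, Atp5g1 at 85.7 TPM and Atp5g2 at 32.1 TPM. In AGRP fed, AGRP FD, POMC fed and POMC FD neurons in turn, Atp5g1 was at 96.7 ± 15.3 (SD, n = 5), 108 ± 13.1 (SD, n = 6), 74.8 ± 12.7 (SD, n = 5) and 59.2 ± 17.9 TPM (SD, n = 5). The level of Atp5g3 in the same order was 441 ± 74.5 (SD, n = 5), 488 ± 91.8 (SD, n = 6), 712.1 ± 204 (SD, n = 5) and 495 ± 77.1 TPM (SD, n = 5). Atp5g3 was thus the main source of c subunit mRNA in all 4 groups, and Atp5g1 had its lowest mean in POMC FD neurons. Atp5g2 was at 39.0 ± 11.6 (SD, n = 5), 21.1 ± 7.03 (SD, n = 6), 49.1 ± 40.6 (SD, n = 5) and 21.4 ± 8.76 TPM (SD, n = 5). The wide SD of Atp5g2 in POMC fed neurons came from replicates 1 and 2, the 5 libraries being at 99.2, 86.1, 11.3, 29.2 and 19.6 TPM. Without these replicates the POMC fed means were 20.03 ± 8.96 TPM for Atp5g2, 67.7 ± 11.2 TPM for Atp5g1 and 604 ± 176 TPM for Atp5g3 (SD, n = 3), and the order of the 3 genes did not change.

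The promoters of these 3 genes and of Atp5k are shown because Atp5g1, Atp5g3 and Atp5k pass the test in comparisons given further on and differ in the motifs of known regulators of respiratory genes. The sequences are from RefSeq (mouse build GRCm38.p6), which matched 70 of the 85 genes, and run 5′ to 3′ on the gene's strand from 250 bases before the start of the gene to 30 bases after it. Capitals mark matches on either strand to a 10-base NRF1 motif and to the ETS motif CCGGAAG, which is the kind bound by NRF2 (GABP).
Atp5g1, minus strand, chr11:96075602-96075881: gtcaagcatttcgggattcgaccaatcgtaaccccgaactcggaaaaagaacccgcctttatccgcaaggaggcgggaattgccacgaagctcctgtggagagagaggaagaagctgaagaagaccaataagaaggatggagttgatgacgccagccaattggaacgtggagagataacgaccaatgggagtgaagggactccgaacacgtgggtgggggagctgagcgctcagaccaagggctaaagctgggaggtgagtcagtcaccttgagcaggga
Atp5g2, minus strand, chr15:102671018-102671297: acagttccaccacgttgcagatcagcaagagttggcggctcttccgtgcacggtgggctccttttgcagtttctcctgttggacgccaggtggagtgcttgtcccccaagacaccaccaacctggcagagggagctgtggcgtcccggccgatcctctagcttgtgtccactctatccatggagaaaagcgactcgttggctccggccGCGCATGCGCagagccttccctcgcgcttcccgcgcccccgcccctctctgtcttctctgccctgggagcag
Atp5g3, minus strand, chr2:73911297-73911576: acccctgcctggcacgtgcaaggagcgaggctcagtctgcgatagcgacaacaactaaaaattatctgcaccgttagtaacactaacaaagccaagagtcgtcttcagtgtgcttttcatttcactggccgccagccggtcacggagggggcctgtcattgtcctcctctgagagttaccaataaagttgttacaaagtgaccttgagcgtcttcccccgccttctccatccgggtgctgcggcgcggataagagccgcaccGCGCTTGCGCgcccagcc
Atp5k, minus strand, chr5:108434370-108434649: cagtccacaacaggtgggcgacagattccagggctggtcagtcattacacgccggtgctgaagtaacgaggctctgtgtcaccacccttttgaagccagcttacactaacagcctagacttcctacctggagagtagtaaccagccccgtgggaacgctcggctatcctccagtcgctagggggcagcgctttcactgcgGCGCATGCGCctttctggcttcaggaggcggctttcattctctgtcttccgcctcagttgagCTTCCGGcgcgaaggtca
Atp5g1 held no match. Atp5g2 held an NRF1 match that begins 42 bases before the start, Atp5g3 one that begins 13 bases after it, and Atp5k one that begins 50 bases before it together with an ETS match that begins 13 bases after it. The shares that follow are of genes, and a gene with more than 1 promoter counts if any of its promoters holds the motif. In the window reaching to 50 bases after the start, searched on both strands, the NRF1 motif was found for 17 of the 70 matched subunit genes (24.3%). Of all 27025 genes with a promoter it was found for 5.19%. The ETS motif was found in 16 (22.9%, against 9.93%) and an 11-base YY1 motif in 5 (7.14%, against 0.755%), with no ETS and YY1 matches sharing bases. At least 1 of the 3 was present in 33 (47.1%, against 14.5%). By complex, the NRF1 motif was found for 7 of 33 genes of complex I, 2 of 3 of complex II, 1 of 5 of complex III, 1 of 13 of complex IV and 6 of 16 of complex V. A match is a description of these letters and not a site, and no match says only that the letters are not in this window.

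In AGRP neurons no single subunit passed the test between FD and fed mice. Of the 81 genes tested, 0 passed edgeR's quasi-likelihood test at an adjusted p under 0.05, against 10.3% of all 16513 genes tested (5.87% higher and 4.43% lower), and 0 met the criteria of the study (an adjusted p under 0.05, a log2 fold change over 1 in size and a mean over 20 CPM in a group), against 4.46%. At an unadjusted p under 0.05 there were 10, 4 higher and 6 lower in FD neurons, or 12.3% of the subunits against 22.3% of all genes. Limma-voom called 1 subunit (12.8% of all genes) and DESeq2 called 2 (13.2%), all lower. The median log2 fold change was 0.15 over the 81 subunits and -0.02 over all genes, with 55 subunits above 0 and 26 below, against 48.5% and 51.4% of all genes. The summed TPM, by contrast, was lower in FD neurons by the ratio given above. The subunits' share of all gene counts was lower too, with an FD mean of 0.943 of the fed mean. Neither sum is TMM-scaled, and both differed in direction from the median of the TMM-scaled fold changes. The median log2 fold change was 0.14 in complex I, 0.06 in complex II, 0.09 in complex III, 0.27 in complex IV and 0.14 in complex V. Without AGRP FD replicate 4 the median over the subunits was -0.01. Of 4 general neuronal markers 2 were higher in AGRP FD neurons, against 5.87% of all genes. These were Snap25 by 1.06 (edgeR adjusted p = 9.6e-06) and Tubb3 by 0.74 (edgeR adjusted p = 0.0112). The other markers of this list, Syt1 and Rbfox3, were lower and did not pass, and the median over the 4 was 0.21. Of 4 astrocyte markers 1 was higher, Aldh1l1, at 2.26 against 0.0312 normalized CPM (edgeR adjusted p = 0.0284). The part of these markers in the subunit values was not tested. In cells pooled by mouse, less RNA per cell and fewer cells of a type cannot be told apart, and the values are shares of each library.

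Complex I gave the 2 subunits whose AGRP groups did not overlap, against 4.08% of all genes that lay wholly higher in FD libraries, and none lay wholly lower, against 3.57%. Ndufv1, the flavoprotein that binds NADH, was at 36.0, 38.2, 34.6, 34.8 and 35.5 normalized CPM in AGRP fed replicates 1 to 5 and between 42.3 and 76.6 (median 54.2) in the 6 AGRP FD libraries. All 6 FD values were above all 5 fed values. The log2 fold change was 0.66 (SE 0.28, adjusted p = 0.142). Ndufb9, an accessory subunit of the membrane arm, was at 55.2, 50.8, 60.8, 70.6 and 64.3 in fed and between 70.6 and 94.5 (median 80.8) in FD libraries. Its highest fed and lowest FD values were the same at this rounding, the FD value being the higher, and its log2 fold change was 0.45 (SE 0.19, adjusted p = 0.146). With offsets that remove the dependence of counts on gene length from each library, Ndufv1 (adjusted p = 0.0367), Ndufb9 (adjusted p = 0.0468) and the c subunit gene Atp5g3 (adjusted p = 0.0368) passed as higher, against 11.5% of all genes called in either direction in that fit.

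In complex II, Sdhd and Sdhb had log2 fold changes of opposite sign. Sdhd, a membrane anchor, was at 84.5, 99.3, 102, 84.6 and 107 normalized CPM in AGRP fed libraries and between 31.8 and 87.1 (median 67.4) in AGRP FD libraries. Of the FD libraries only replicate 2 reached the fed range. The log2 fold change was -0.57 (SE 0.20, edgeR adjusted p = 0.0649), and it passed in limma-voom (adjusted p = 0.0316), in DESeq2 (adjusted p = 0.0408) and in edgeR without AGRP FD replicate 2 (-0.67, adjusted p = 0.0327). Sdhb, the iron-sulphur subunit, was at 38.2, 45.8, 34.6, 30.7 and 31.6 in fed and between 33.95 and 124 (median 43.6) in FD libraries. The value of 124 was that of AGRP FD replicate 4, with the next at 55.9, and the log2 fold change of 0.65 (SE 0.31, adjusted p = 0.206) did not pass.

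No complex III subunit had an unadjusted p under 0.05 between fed and FD AGRP neurons. Uqcrb, a subunit near the ubiquinone site, had a log2 fold change of 0.49 (SE 0.33, adjusted p = 0.424) and Uqcrc1, a core protein, of 0.31 (SE 0.23, adjusted p = 0.478). Among complex IV genes Cox7a2l was at 96.5, 109, 83.5, 71.0 and 74.1 normalized CPM in fed and between 44.9 and 76.1 (median 58.7) in FD libraries. The groups overlapped through AGRP FD replicate 6, and the log2 fold change was -0.54 (SE 0.20, edgeR adjusted p = 0.0846, DESeq2 adjusted p = 0.0431). It passed as lower in the edgeR fit without POMC fed replicates 1 and 2 (adjusted p = 0.0449). Cox6b2 had the lowest fold change, -3.16 on the log2 scale (adjusted p = 0.186). This rested on AGRP fed replicate 2 at 10.2 CPM, with the other fed libraries at or below 1.23 CPM.

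In complex V the lowest fold changes belonged to the 2 genes that are not structural subunits. Atp5sl was at 14.9, 21.7, 16.4, 21.01 and 31.9 normalized CPM in AGRP fed and between 5.05 and 17.1 (median 6.83) in AGRP FD libraries. AGRP FD replicates 1 and 3 lay inside the fed range and the other 4 FD libraries below it. The log2 fold change was -1.12 (SE 0.42, adjusted p = 0.0913; -1.35 and 0.0413 without AGRP FD replicate 1), and for Atp5s it was -0.90 (SE 0.38, adjusted p = 0.151). The catalytic beta subunit Atp5b was at 1105, 1420, 1103, 1730 and 1865 in fed and between 1234 and 2207 (median 1635) in FD libraries, with overlapping groups.

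**Figure D4:**
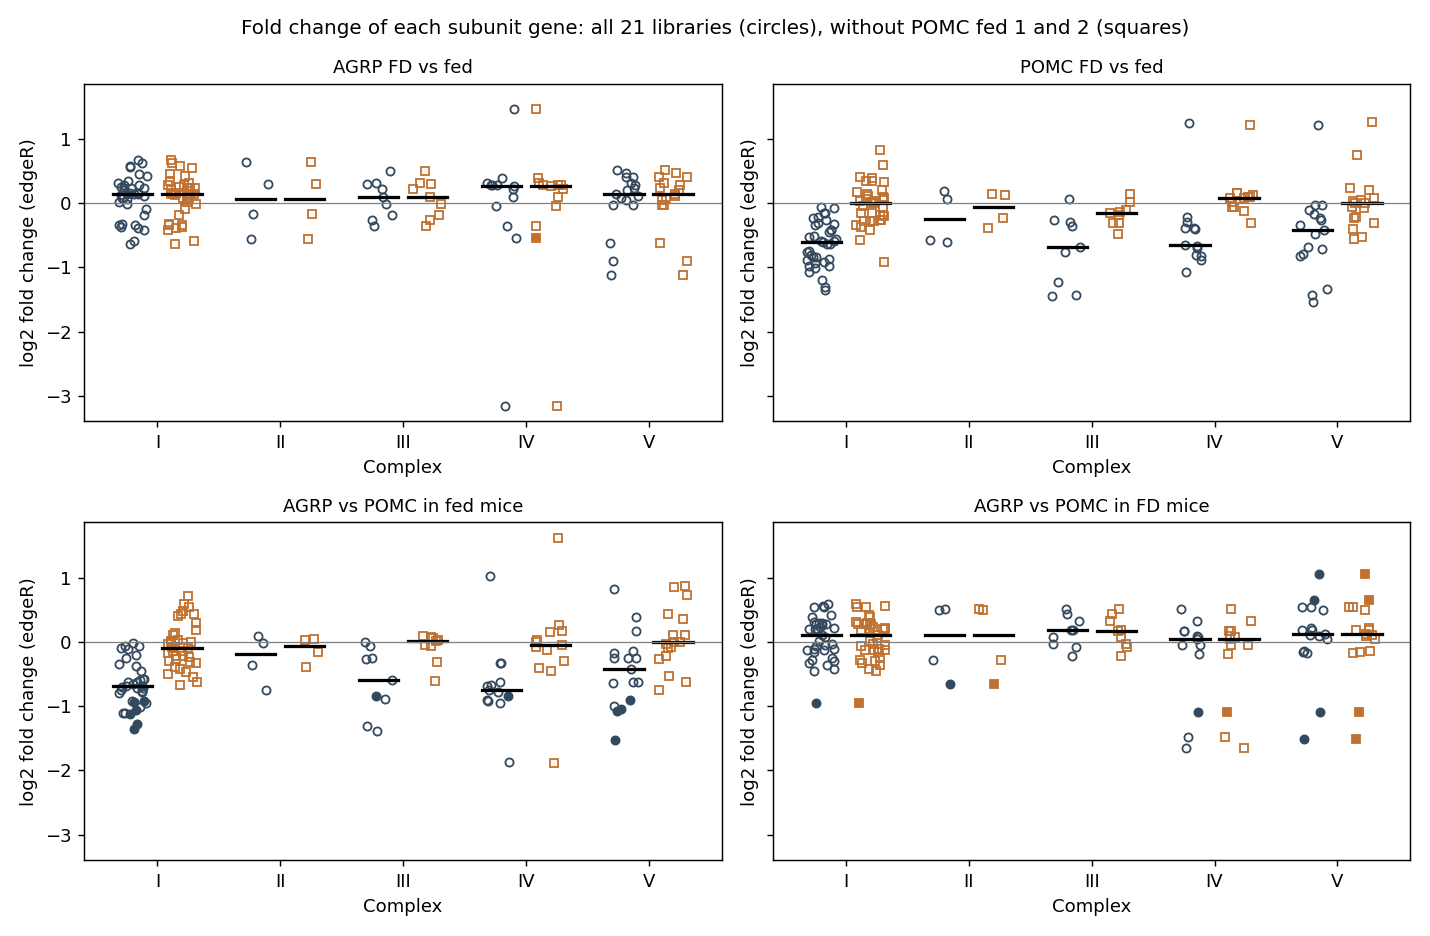
Log2 fold change of each tested subunit in 4 contrasts, by complex, from edgeR fits with all 21 libraries (circles) and without POMC fed replicates 1 and 2 (squares). Filled symbols have an adjusted p under 0.05, horizontal bars are the medians of each complex, and Cox6a2 is not drawn. In POMC FD against fed and in AGRP against POMC of fed mice the circles lie mostly below 0 and the squares around 0, while in the other contrasts the 2 fits lie close together.

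Genes that work beside the complexes were also followed. Of 9 tested genes for cytochrome c, mitochondrial carriers and ATP synthase regulators, 3 were higher in FD neurons and 0 lower, against 5.87% of all genes higher and 4.43% lower. Slc25a5, an ADP/ATP carrier, went from 36.9 ± 10.7 (SD, n = 5) to 115 ± 32.2 normalized CPM (SD, n = 6), with all FD libraries between 67.3 and 164 and all fed libraries between 20.6 and 49.7. The log2 fold change was 1.64 (SE 0.27, edgeR adjusted p = 0.000137). Slc25a3, which carries phosphate, rose by 0.74 (SE 0.15, edgeR adjusted p = 0.00111), from 194 ± 25.0 to 322 ± 51.6. Cycs, cytochrome c, rose by 1.16 (SE 0.29, edgeR adjusted p = 0.00853), from 20.4 ± 6.01 to 45.6 ± 17.3. In the test of whether the change differed between cell types, all of Slc25a5 (adjusted p = 0.00235), Slc25a3 (adjusted p = 0.00486) and Cycs (adjusted p = 0.0179) passed. Without POMC fed replicates 1 and 2 Slc25a5 and Slc25a3 passed and Cycs did not (adjusted p = 0.0629).

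Of 41 tested assembly factors, 1 rose and 3 fell in AGRP FD neurons, a share close to the 10.3% of all genes called, so that the count is no result about the list. The 3 with the lowest p all act on complex III. Ttc19 rose by 1.02 (SE 0.20, adjusted p = 0.000918), from 74.5 ± 11.9 to 151 ± 48.6 normalized CPM. Lyrm7 fell by 2.73 on the log2 scale (SE 0.57, adjusted p = 0.0016) to 2.62 ± 1.34 CPM and Bcs1l, which like Lyrm7 helps insert the Rieske iron-sulphur protein, fell by 1.7 on the log2 scale (SE 0.45, adjusted p = 0.0132) to 6.11 ± 3.67 CPM. Of 16 enzymes of the citric acid cycle and pyruvate dehydrogenase, 3 rose and 0 fell (5.87% and 4.43% of all genes), namely Dlat (log2 fold change 1.16, adjusted p = 1.7e-05), Dld (0.62, adjusted p = 0.0228) and Dlst (0.86, adjusted p = 0.0265), which encode subunits of the pyruvate and 2-oxoglutarate dehydrogenases. Of 17 glycolytic genes 2 rose and 2 fell, against the same shares of all genes, with the phosphofructokinase Pfkp at 1.14 (adjusted p = 0.000116), its relative Pfkl at -1.10 (adjusted p = 0.0153) and Aldoc at -0.97 (adjusted p = 0.00824). None of 16 regulators of respiratory genes passed, by edgeR (10.3% of all genes), with 3 at an unadjusted p under 0.05 (22.3% of all genes). These 3 were Gabpb1, Ppargc1b and Polg, at adjusted p of 0.162, 0.174 and 0.221. In POMC neurons none of these lists held a gene past the test, against 0.375% of all genes.

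The 13 subunits encoded in mitochondrial DNA could not be set beside the nuclear ones. Reads from mitochondrial sequences had been removed before the files were made, and 7 of the 13 passed the count filter on what was left. None of the 7 passed the test in either cell type.

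In POMC neurons the subunits were lower in FD than in fed libraries, and most of the difference came with POMC fed replicates 1 and 2. With all libraries 76 of 81 subunits had a log2 fold change below 0, against 51.7% of all genes, and the median was -0.59 against -0.02 over all genes. None of the 81 passed the edgeR test, against that share of all genes (0.182% higher and 0.194% lower), while 36 had an unadjusted p under 0.05, 1 higher and 35 lower, against 12.2% of all genes. Limma-voom called 0 (0.442% of all genes) and DESeq2 called 7, all lower (2.31% of all genes). Without those 2 libraries the median over 80 subunits was -0.00, with 39 above and 41 below 0. Between the 3 FD and 3 fed libraries that received the same volume of spike-in RNA, the median was -0.15 with 0 called (0.115% of all genes). By the group means of log2 CPM in these libraries, 53 subunits were lower and 28 higher in FD. The median of these differences was -0.16 over the subunits and -0.003 over all genes.

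The 4 subunits whose POMC groups did not overlap, against 1.27% of all genes lower in this way and 1.08% higher, came from complexes I, III and V. Uqcrc2, a core protein of complex III, was at 258, 154, 144, 130 and 126 normalized CPM in fed replicates 1 to 5 and at 68.7, 119, 86.9, 99.7 and 103 in FD replicates 1 to 5. All FD values were lower than all fed values, with the highest in fed replicate 1, and the log2 fold change was -0.77 (SE 0.18, edgeR adjusted p = 0.0551, DESeq2 adjusted p = 0.00616). Atp5k, the e subunit that helps hold ATP synthase dimers together, was at 86.9, 106, 30.2, 37.1 and 33.4 in fed and at 24.0, 28.1, 17.9, 24.1 and 21.9 in FD libraries. All 5 FD values were again lower, by most in comparison with fed replicates 1 and 2, and the log2 fold change was -1.34 (SE 0.34, edgeR adjusted p = 0.0682, DESeq2 adjusted p = 0.00923). The others were Ndufb3, an accessory subunit of complex I, with a log2 fold change of -1.003 (SE 0.28, adjusted p = 0.0951), and Atp5j2, a membrane subunit of the ATP synthase, with one of -0.83 (SE 0.29, adjusted p = 0.198). Without POMC fed replicates 1 and 2 the log2 fold changes were -0.48 for Uqcrc2 (SE 0.18, adjusted p = 0.363), -0.53 for Atp5k (SE 0.33, adjusted p = 0.671), -0.58 for Ndufb3 (SE 0.29, adjusted p = 0.549) and -0.40 for Atp5j2 (SE 0.31, adjusted p = 0.766). Uqcrc2 passed the edgeR test when POMC fed replicate 3 (adjusted p = 0.0485), 4 (0.0403) or 5 (0.04) or POMC FD replicate 2 (0.0492) was left out, and Atp5k passed without POMC fed replicate 3 (adjusted p = 0.0358), 4 (0.0498) or 5 (0.0474).

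By complex, the POMC medians moved with the same 2 libraries, and no test compares the complexes. With all libraries the median log2 fold change was -0.61 in complex I, in which all 37 subunits were below 0, -0.69 in complex III, -0.66 in complex IV and -0.42 in complex V. In complex II it was -0.25, with Sdhc, a membrane anchor, at -0.58 (SE 0.24, adjusted p = 0.304) and Sdha at 0.19 (adjusted p = 0.590). Without POMC fed replicates 1 and 2 the medians were -0.00, -0.05, -0.16, 0.09 and -0.00 in complexes I to V, with Sdhc at -0.38 (adjusted p = 0.728) and Sdha at 0.14 (adjusted p = 0.851). Cox7a2 had the lowest p in complex IV. It was at 179, 176, 70.8, 66.4 and 55.1 normalized CPM in POMC fed replicates 1 to 5 and at 29.3, 46.5, 41.1, 63.4 and 79.1 in POMC FD replicates 1 to 5. POMC fed replicates 3 to 5 lay within the FD range and replicates 1 and 2 above it, and the log2 fold change was -1.08 (SE 0.33, adjusted p = 0.137), or -0.31 (SE 0.32, adjusted p = 0.853) without those replicates. Across the subunits the log2 fold change was lower for shorter genes, with a Pearson r of 0.387 and a Spearman rho of 0.470 with log exon length over 81 genes, which share their libraries and are not independent. Without POMC fed replicates 1 and 2 these were -0.046 and -0.075 over 80 genes.

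Between AGRP and POMC neurons of fed mice the subunits were lower in AGRP neurons, and this too came with POMC fed replicates 1 and 2. With all libraries 13 of 81 were lower and 0 higher in AGRP neurons by edgeR, against 7.57% of all genes in either direction, 4.24% lower and 3.33% higher, and 7 of the 13 also met the study's criteria, against 4.02% of all genes. The median was -0.67, with 76 subunits below 0 (50.8% of all genes) and 5 above (49.2%), and 42 had an unadjusted p under 0.05 (18.9% of all genes). Without those 2 libraries 0 of 80 passed by edgeR (5.29% of all genes), and the median was -0.04. Of the 13, the 12 that could still be tested had log2 differences of -0.67 to -0.21 and adjusted p of 0.214 to 0.888. The 2 POMC fed libraries whose spike-in volume followed the number of cells are these same replicates 1 and 2. Between the 2 AGRP fed libraries of that set and these, the median was -1.53, with 50 subunits lower and 1 higher by the test. Of all genes 10.9% were called there in either direction. Between the 1 AGRP fed and 3 POMC fed libraries given the smallest volume it was -0.20, with 55 below 0, and was not tested there.

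Subunits of complexes I and V made up 10 of these 13. Ndufa6, an accessory subunit of complex I, was at 20.96, 22.4, 17.5, 21.2 and 16.2 normalized CPM in AGRP fed replicates 1 to 5 and at 78.0, 68.7, 31.8, 35.8 and 23.4 in POMC fed replicates 1 to 5. The groups did not overlap, as for Ndufb9 and Cox6a2 and against 4.55% of all genes lower in this way, and no subunit lay wholly higher (4.38% of all genes). POMC fed replicates 1 and 2 were the highest. The log2 difference was -1.27 (adjusted p = 0.0124). In the same complex Ndufa5, another accessory subunit, differed by -1.35 (adjusted p = 0.0272), Ndufa1, a small membrane-arm subunit, by -1.13 (adjusted p = 0.0382) and Ndufa4 by -1.06 (adjusted p = 0.0230). In complex V the lowest was Atp5e, the epsilon subunit of the central stalk, at -1.52 (adjusted p = 0.0380), followed by Atp5k at -1.07 (adjusted p = 0.0489), Atp5j2 at -1.05 (adjusted p = 0.0205) and Atp5g3 at -0.91 (adjusted p = 0.00798). Complex III contributed Uqcrh at -0.84 (adjusted p = 0.0492) and complex IV Cox7a2l at -0.84 (adjusted p = 0.00872). In complex II the lowest p was that of Sdhb, at -0.75 (adjusted p = 0.172).

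Cox6a2, the muscle isoform of subunit 6a, was the one complex IV isoform whose AGRP and POMC fed groups did not overlap. It had no count in any of the 5 AGRP fed libraries and was at 1.60, 2.59, 1.18, 0.531 and 1.49 normalized CPM in POMC fed replicates 1 to 5, from 10 to 70 counts. This was present in all 5 POMC libraries, those other than replicates 1 and 2 included. With 3 counts per library as the floor, or at most 0.183 CPM, the mean in POMC fed neurons was at least 8.10-fold higher, and the fitted difference is no bound (edgeR adjusted p = 0.00472). In POMC FD libraries it was at 0.0533, 0.907, 0.254, 0.393 and 0.363 CPM, and in AGRP FD libraries it had at most 2 counts. The gene overlaps Itgad and reads were counted without strand, so reads of the 2 genes cannot be told apart. In the fits without POMC fed replicates 1 and 2 it fell under the count filter and was not tested.

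The comparison of AGRP with POMC neurons of FD mice does not involve POMC fed libraries other than in the shared estimate of the spread. Here 7 of 81 subunits passed by edgeR, 2 higher and 5 lower in AGRP neurons, a share of the subunits below the 18.6% of all genes called. Higher calls were 9.28% and lower calls 9.27% of all genes. Under scaling per cell by spike-in RNA, which moved the median of all genes by 1.10 on the log2 scale, 0 passed (6.76% of all genes). The lower genes Atp5s, Atp5sl, Ndufa6 and Sdhd changed sign there, to 0.57, 0.094, 0.0494 and 0.55. The set with spike-in volume scaled to cell number held 3 AGRP FD and 0 POMC FD libraries, so this shift and the set cannot be told apart. With TMM scaling the subunits were as follows. The median was 0.10 against -0.00 over all genes, with 48 subunits above and 33 below 0, against 49.8% and 50.1% of all genes, and 14 had an unadjusted p under 0.05 (30.3% of all genes). Without POMC fed replicates 1 and 2 the counts were again 2 higher and 5 lower (19.5% of all genes in either direction). Of the 7, 4 met the study's criteria, against 8.11% of all genes, and Atp5b, Sdhd and Ndufa6 were below its size or level limits and are described in this comparison because their values were seen to pass.

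Both genes higher in AGRP neurons encode core parts of the ATP synthase. Atp5b was between 1234 and 2207 normalized CPM (median 1635) in the 6 AGRP FD libraries and at 893, 1094, 1180, 1095 and 1165 in POMC FD replicates 1 to 5. The groups did not overlap, against 5.94% of all genes higher in this way. The log2 difference was 0.64 (SE 0.15, edgeR adjusted p = 0.00165). Atp5g1 was between 150 and 256 (median 172) in AGRP FD and at 70.6, 68.0, 69.9, 97.1 and 129 in POMC FD libraries. These groups did not overlap either, with AGRP FD replicate 4 the highest, and the log2 difference was 1.06 (SE 0.20, edgeR adjusted p = 0.000262). The groups of Ndufs8, an iron-sulphur subunit of complex I, did not overlap and it did not pass the test.

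Of the 5 genes lower in AGRP neurons, 3 belong to those that are not plain structural subunits. Cox7a2l was between 44.9 and 76.1 normalized CPM (median 58.7) in AGRP FD and at 155, 147, 119, 114 and 99.2 in POMC FD replicates 1 to 5. All AGRP values were below all POMC values, against 5.49% of all genes, and the log2 difference was -1.08 (SE 0.20, edgeR adjusted p = 0.000153). Atp5sl was between 5.05 and 17.1 (median 6.83) in AGRP FD and at 61.2, 29.3, 12.4, 24.2 and 12.3 in POMC FD libraries, overlapping through AGRP FD replicates 1 and 3. Its log2 difference was -1.51 (SE 0.42, adjusted p = 0.0101) and it was lost without POMC FD replicate 1 (-1.0003, adjusted p = 0.0986). Atp5s was between 3.31 and 18.9 (median 11.5) in AGRP FD and at 14.5, 14.6, 22.3, 35.1 and 33.1 in POMC FD libraries, overlapping through AGRP FD replicate 1, with a log2 difference of -1.10 (SE 0.38, adjusted p = 0.044).

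The remaining lower genes were Sdhd and Ndufa6. Sdhd, with the AGRP FD values given above, was at 82.2, 125, 93.5, 108 and 96.9 normalized CPM in POMC FD replicates 1 to 5, a log2 difference of -0.65 (SE 0.20, adjusted p = 0.0189). Only AGRP FD replicate 2 reached into the POMC range. Ndufa6 was between 8.75 and 17.5 (median 13.4) in AGRP FD and at 33.1, 17, 20.99, 21.02 and 33.1 in POMC FD libraries, overlapping through AGRP FD replicate 2, with a log2 difference of -0.95 (SE 0.31, adjusted p = 0.0316).

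**Figure D5:**
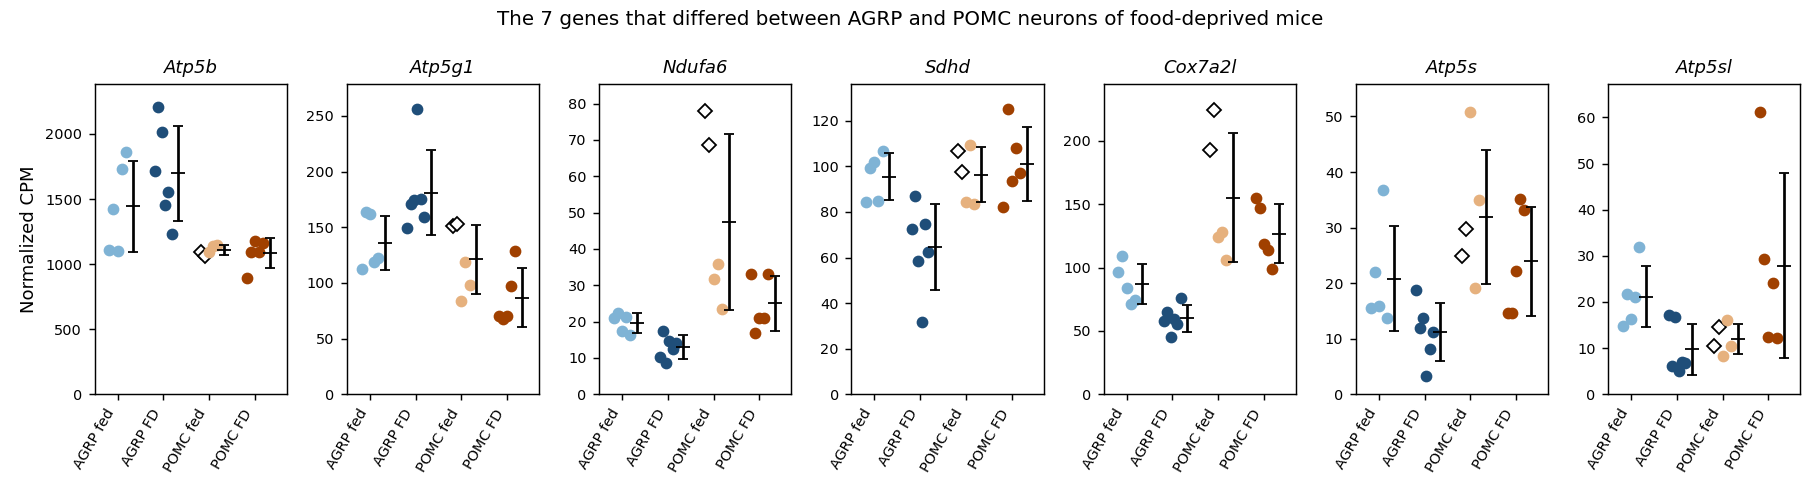
Normalized CPM of the 7 subunit genes that passed between AGRP and POMC neurons of FD mice, on linear axes from 0, with 1 point per library and the mean ± SD of each group beside it. Open diamonds are POMC fed replicates 1 and 2. Atp5b and Atp5g1 lie higher in all AGRP FD than in all POMC FD libraries and Cox7a2l lower, while the other 4 genes overlap.

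In limma-voom Ndufa6 did not pass (adjusted p = 0.117), and with gene length offsets Ndufa6 (adjusted p = 0.1004), Sdhd (0.0598) and Atp5s (0.0677) did not, while Atp5b, Atp5g1, Cox7a2l and Atp5sl passed in both of these fits and in DESeq2. Leaving out each of the 21 libraries in turn kept the calls of Atp5b, Atp5g1 and Cox7a2l. Sdhd was lost without POMC FD replicate 2 (adjusted p = 0.0656). Ndufa6 was lost in 5 of the 21 fits, those without AGRP FD replicate 1, 3 or 5 or POMC FD replicate 1 or 5, at adjusted p of 0.0519 to 0.0861. Atp5s was lost in 7, those without AGRP FD replicate 2, 4, 5 or 6 or POMC FD replicate 3, 4 or 5, at adjusted p of 0.0581 to 0.126. All 7 genes had the same direction within both sets of libraries that shared a spike-in volume. In the set of 2 AGRP FD and 2 POMC FD libraries the log2 differences were 0.24 for Atp5b, 0.85 for Atp5g1 and -0.66 for Cox7a2l, and Atp5s was the 1 subunit called (adjusted p = 0.0415), against 7.04% of all genes. In the set of 1 AGRP FD and 3 POMC FD libraries, which was not tested, the differences for Atp5b, Atp5g1 and Cox7a2l were 0.57, 1.34 and -1.33.

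The change on food deprivation was lastly compared between the cell types. The test of the difference, the AGRP change less the POMC change, called 4 subunits higher and 1 lower by edgeR, against 6.71% of all genes in either direction, 4.08% higher and 2.63% lower. The median over the subunits was 0.72, with 70 above 0 (50.3% of all genes), and 0.22 without POMC fed replicates 1 and 2. The 4 higher genes were Ndufb9 at 0.97 (SE 0.27, adjusted p = 0.0265), Ndufa5 at 1.89 (SE 0.54, adjusted p = 0.0291), Atp5g3 at 1.09 (SE 0.31, adjusted p = 0.0293) and Atp5k at 1.62 (SE 0.47, adjusted p = 0.0331). In none of them did the change pass in either cell type alone. Ndufa5 was at 26.4, 36.3, 23.5, 19.7 and 14.6 normalized CPM in AGRP fed, between 16.8 and 59.1 (median 32.8) in AGRP FD, at 137, 70.2, 31.3, 40.9 and 27.5 in POMC fed and at 15.9, 23.5, 27.7, 26.5 and 30.5 in POMC FD libraries. The 2 values that stand out are those of POMC fed replicates 1 and 2, and without these libraries all 4 genes failed the test, at adjusted p of 0.107 to 0.331, against 4.73% of all genes called. Leaving out 1 library at a time lost Ndufb9 in 3, Ndufa5 in 6, Atp5g3 in 8 and Atp5k in 10 of the 21 fits.

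Atp5sl was the subunit whose difference in change did not depend on those libraries. It was at 10.6, 14.6, 8.37, 16.2 and 10.4 normalized CPM in POMC fed replicates 1 to 5, so that 4 of the 6 AGRP FD libraries lay below all AGRP fed ones and 3 of the 5 POMC FD libraries above all POMC fed ones. The difference in change was -2.33 (SE 0.61, edgeR adjusted p = 0.0172) with all libraries and -2.38 (adjusted p = 0.0438) without POMC fed replicates 1 and 2. Without POMC FD replicate 1, at 61.2 CPM the highest of all libraries, it was -1.82 (adjusted p = 0.0604). Neither change passed within its own cell type.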

How the data were processed

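The members and the gene lists were chosen with earlier results of these data known. Per the submitters' processing notes, CASAVA, cutadapt 1.7.1, Bowtie2 2.1.0, STAR 2.4.0i and HTSeq 0.6.1p1 were used with build mm10, and reads of ribosomal, mitochondrial and phiX sequence were removed before counting, so mitochondrially encoded subunits are measured only by what was left. Uniquely mapped reads were counted without regard to strand, so reads of overlapping genes (22 of the 85 subunits overlap another gene) cannot be told apart. The authors deposited raw counts per gene, which were used for all tests, and TPM, which the authors made from counts and exon lengths and which were used for levels and sums. Floors cover counting error only, while the SE of a log2 fold change is from the edgeR fit and includes the spread between mice.

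Genes with CPM over 1 in at least 3 libraries were kept (16513), scaled by TMM and fitted with 4 group means over the 21 libraries by the quasi-likelihood test of edgeR 4.0.16 (R 4.3.3), two-sided, with Benjamini-Hochberg adjustment over all genes and a call at an adjusted p under 0.05. Adjusted p without a named tool are from edgeR. Normalized CPM are counts scaled to the TMM library size. Genes named in the text were the highest by TPM in each complex, the lowest p in each complex (2 in AGRP FD against fed, 1 in POMC FD against fed and in AGRP against POMC fed), those meeting the study's criteria in any contrast, all isoform families and all untested members, plus up to 3 genes of each other list. Other genes named in the report, those whose groups did not overlap or that passed the test under the study's size limit, and Dld, Dlst and the neuronal and astrocyte markers, were chosen after their values were seen. Alternatives were limma-voom (limma 3.58.1), DESeq2 1.42.0, other filters, scalings, blocks and offsets over 20 bins of gene length, and each library left out in turn. Leaving out POMC fed replicates 1 and 2, and fits within spike-in sets, were chosen after seeing the data. The motif patterns searched in the promoters were consensus letters set by hand from general knowledge, not taken from the deposited files or the reference. Figures were drawn with Python 3.11.15 and matplotlib 3.10.9. The statistics were tested on simulated data. Each library is from 1 mouse. No 2 libraries of a group agreed within sampling noise.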

Additional observations from a re-analysis of the deposited data

Results flagged for a closer look

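Of 176 groups of libraries examined, 15 had a highest or lowest library far from the rest by Dixon's criterion, which chance gives in about 1 in 20 groups. In AGRP FD replicate 4, Atp5g1 was at 256 and Sdhb at 124 normalized CPM, with the nearest libraries at 176 and 55.9. In AGRP fed replicate 2, Atp5k was at 43.4 and Cox6b2 at 10.2, with the nearest at 25.1 and 1.23. In POMC fed replicate 1, Uqcrc2 was at 258, with the nearest at 154. In POMC FD replicate 1, Uqcrh was at 81.3, with the nearest at 90.5, and complex II summed to 1190 TPM in POMC FD replicate 4, with the nearest at 1286.

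The other 8 concern isoforms near the detection limit. Cox7a1 was at 0.961 normalized CPM in AGRP fed replicate 1 and at 3.39 in AGRP FD replicate 5. Cox7b2 was at 1.60 in AGRP fed replicate 1, 0.253 in AGRP FD replicate 5 and 1.07 in POMC FD replicate 1. Cox8b was at 0.608 in AGRP FD replicate 5 and 0.169 in POMC FD replicate 3, and Cox4i2 at 1.81 in POMC fed replicate 3. For both Cox8b values, and for Cox7b2 in AGRP fed and POMC FD neurons, the library named was the only one of its group with counts.

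By the edgeR test of the difference, the change on food deprivation differed between AGRP and POMC neurons for 5 of 81 subunits. This share of 6.17% is close to the 6.71% of all genes called, so the count is no result about the subunits. On the log2 scale Ndufa5 was at 1.89, Atp5k at 1.62, Atp5g3 at 1.09, Ndufb9 at 0.97 and Atp5sl at -2.33. Without POMC fed replicates 1 and 2 only Atp5sl of these genes still passed.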

How the results depend on the processing

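The counts of subunits called, of 81 tested, were 0 for AGRP FD against fed, 0 for POMC FD against fed, 13 and 7 for AGRP against POMC in fed and FD mice and 5 for the difference in change. Of all 16513 genes the same fit called 1700, 62, 1250, 3064 and 1108. Brackets in this paragraph give the number of all genes called in the fit named. In that order of results, those that moved were as follows. Limma-voom gave 1 in AGRP FD against fed (2115) and 3 for the difference in change (1181). DESeq2 gave 2 and 7 in the 2 FD contrasts (2177 and 382), and a filter at 20 CPM gave 2 and 2 (1599 and 146 of 8205). The 2 groups alone gave 1 in AGRP FD against fed (1679) and 4 in AGRP against POMC of FD mice (2638). A spike-in set block gave 2 in AGRP FD against fed (1861), 33 in AGRP against POMC of fed mice (1424) and 8 for the difference (1025). The share of reads outside genes as a covariate gave 1 in POMC FD against fed (92), 5 in AGRP against POMC of fed mice (1148) and 2 for the difference (931). Gene length offsets gave 3 in AGRP FD against fed (1898) and 4 in AGRP against POMC of FD mice (3120). The cause was not tested in any of these.

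With a replicate block the counts were 1 in AGRP FD against fed (1488 of all genes), 6 in AGRP against POMC of fed mice (1132) and 2 for the difference (927). The numbers name different mice and do not pair them, since same-numbered deviations correlated at -0.0976 to 0.0725 and 1 of 5 AGRP pairs correlated best with its own number.

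Scaling per cell by spike-in RNA, which shifted the median of all genes by -1.11 in POMC FD against fed, 1.10 in AGRP against POMC of FD mice and 1.04 in the difference, gave subunit medians of -1.89, 1.01 and 1.98 and counts of 1 in AGRP against POMC of fed mice, 0 in FD mice and 0 for the difference. Of all genes 297 were called in fed mice, 1117 in FD mice and 119 for the difference. In FD mice this scaling turned the direction of Atp5s (0.57), Atp5sl (0.094), Ndufa6 (0.0494) and Sdhd (0.55). The set whose spike-in volume followed the number of cells held 3 AGRP FD, 2 AGRP fed, 2 POMC fed and 0 POMC FD libraries. The shifts under this scaling and the spike-in set therefore cannot be told apart.

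Without POMC fed replicates 1 and 2 the counts were 1 in AGRP FD against fed (1764 of all 16286 genes), 0 in AGRP against POMC of fed mice (862) and 1 for the difference (770). The medians were -0.0022 in POMC FD against fed, -0.0435 in AGRP against POMC of fed mice and 0.22 for the difference, and the ratios of summed TPM were 0.993 in POMC FD against fed and 1.02 in AGRP against POMC of fed mice. With length offsets as well the counts were 3, 0, 4 in AGRP against POMC of FD mice and 1, and the medians 0.0312, -0.19 and 0.36. Of all genes this fit called 1924, 869, 3166 and 825 in the order of the counts. Within spike-in sets the median was -0.15 in POMC FD against fed. In AGRP against POMC of fed mice 51 were called (1797 of all genes) with a median of -1.53, the POMC libraries there being replicates 1 and 2. In FD mice 1 was called (1163 of all genes).

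Leaving out 1 library gave counts of 0 to 1, 0 to 3, 2 to 23, 5 to 7 and 1 to 10 in the order above. The medians ranged from -0.01 to 0.24, -0.71 to -0.37, -0.81 to -0.41, -0.08 to 0.19 and 0.47 to 0.81. In AGRP FD against fed 1 was called without AGRP FD replicate 1 (1919) or 2 (1444). In POMC FD against fed 2 were called without POMC fed replicate 3 (111) or 4 (85). There 3 were called without POMC fed replicate 5 (72) and 1 without POMC FD replicate 2 (55). In AGRP against POMC of fed mice 7 were called without AGRP fed replicate 1, 4 without AGRP fed replicate 4 or 5, 3 without POMC fed replicate 1, 2 without replicate 2, 23 without replicate 3 and 22 without replicate 5. For the difference 3 were called without AGRP fed replicate 3 (868) and 1 without POMC fed replicate 2 (879). It was 2 without AGRP fed replicate 4 (870) or 5 (1008), AGRP FD replicate 4 (963), POMC fed replicate 1 (959) or POMC FD replicate 1 (973). It was 8 without AGRP FD replicate 1 (1310) or POMC fed replicate 5 (1043) and 10 without POMC fed replicate 3 (1063). The ratios of summed TPM ranged from 0.890 to 0.975, 0.734 to 0.857, 0.751 to 0.877 and 0.910 to 0.977 for the 4 contrasts of groups. The next counts are for single genes in the fits with another method, filter, scaling, block, covariate or set of libraries. They do not include the fits that left out 1 library. There 477 values kept direction and side of the threshold, 109 lost the call, 21 gained it and 4 changed direction. Isoforms near 1 CPM rest on few counts, and fold changes there are imprecise.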
